A study of Mus musculus with 6 samples.

Results

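The small leucine-rich proteoglycans are secreted proteins of the extracellular matrix, and 10 of their genes were measured in the soleus of mice with 1 disrupted copy of *Mustn1*. The 10 genes were taken by symbol from the normalized table, *Dcn*, *Bgn*, *Aspn*, *Fmod*, *Lum*, *Prelp*, *Omd*, *Ogn*, *Chad* and *Podn*, and joined by gene identifier to the raw counts. They are 10 of the 51912 genes in the count table. All 10 passed the filter on low counts and are among the 14696 genes tested. Proteins of this family have a core of leucine-rich repeats that curves around collagen, and most carry chondroitin, dermatan or keratan sulfate chains or sulfated tyrosines. Several of them set the diameter and spacing of collagen fibrils, and some also bind growth factors and receptors. In muscle they are known as products of fibroblasts, fibro-adipogenic progenitors (FAPs) and the cells of tendon and fascia, rather than of the fibers.

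RNA-seq was performed on the soleus, a calf muscle rich in slow fibers, from 3 *Mustn1* KO-first heterozygous mice (HET) and 3 wild-type littermates (WT) of the C57BL6/N strain at 8 weeks of age, with 1 library per mouse. The KO-first allele carries a gene trap (lacZ and neomycin resistance) that captures the transcript after the first exon and was made to stop *Mustn1* expression. It is present in every tissue, the second copy is intact, and no group without a functional copy was sequenced, so a difference cannot be assigned to *Mustn1* loss in a particular cell type. The labels do not say which mice shared a litter.

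Libraries held between 26790075 and 50368796 reads on genes. *Mustn1* had 471, 452 and 574 reads in HET mice 1 to 3 and 691, 817 and 1504 reads in WT mice 1 to 3, which gave 14.2 ± 2.33 against 27.5 ± 3.89 CPM (reads scaled to library size with TMM factors; mean ± SD, n = 3). This difference passed the test, with a log2 fold change of −0.96 and an adjusted p of 0.0452 in edgeR's quasi-likelihood test. Neither this gene nor any other passed when HET 1, HET 3, WT 1 or WT 2 was left out. The labels call all 6 mice male. However, *Xist*, the RNA of the inactive X chromosome, had at least 3858 reads in every library, while *Ddx3y*, *Kdm5d*, *Uty* and *Eif2s3y* on the Y chromosome had at most 12 reads together, so the libraries go against that label in both genotypes alike. *Bgn* is the only X-linked member. Summed CPM of 7 slow fiber markers lay between 37190 and 42316 in the 6 mice, and that of 7 fast fiber markers between 22467 and 28942. None of these 14 genes passed the test, and their ends were *Tnnc1* at −0.17 and *Myh7* at 0.01 for slow fibers and *Myh4* at −0.91 and *Tnnt3* at −0.15 for fast fibers (log2 fold change). *Myh4*, the myosin of the fastest fibers, had 44.7, 2042 and 167 CPM in HET mice 1 to 3 and between 976 and 1774 CPM in WT mice. HET 1 and HET 3 lay far below the other 4 mice for this gene, and its part in the results was not tested.

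All 10 members had a higher mean level in HET than in WT mice, and none passed the adjusted test. Log2 fold changes lay between 0.22 for *Aspn* and 2.14 for *Chad*, with a median of 0.64, beside a median of −0.02 over all genes tested. Of all tested genes, 45.6% had a log2 fold change above 0, the share beside which counts above 0 in the lists below are read. With edgeR, 0 of the 10 members had an adjusted p below 0.05, where 0.143% of all tested genes passed as higher in HET. At an unadjusted p below 0.05, 8 of the 10 were higher in HET, against 5.76% of all tested genes. DESeq2's Wald test called 3 of the 10, *Dcn*, *Bgn* and *Prelp*, where it called 1.48% of all tested genes higher, and limma-voom called 0. In 7 of the 10 members every HET mouse lay above every WT mouse, an arrangement found in 7.55% of all tested genes. The 3 members whose genotypes overlapped were *Lum*, *Ogn* and *Aspn*. Because the samples are whole muscle, more cells of a type and more RNA per cell cannot be told apart in any of these values.

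**Figure D1:**
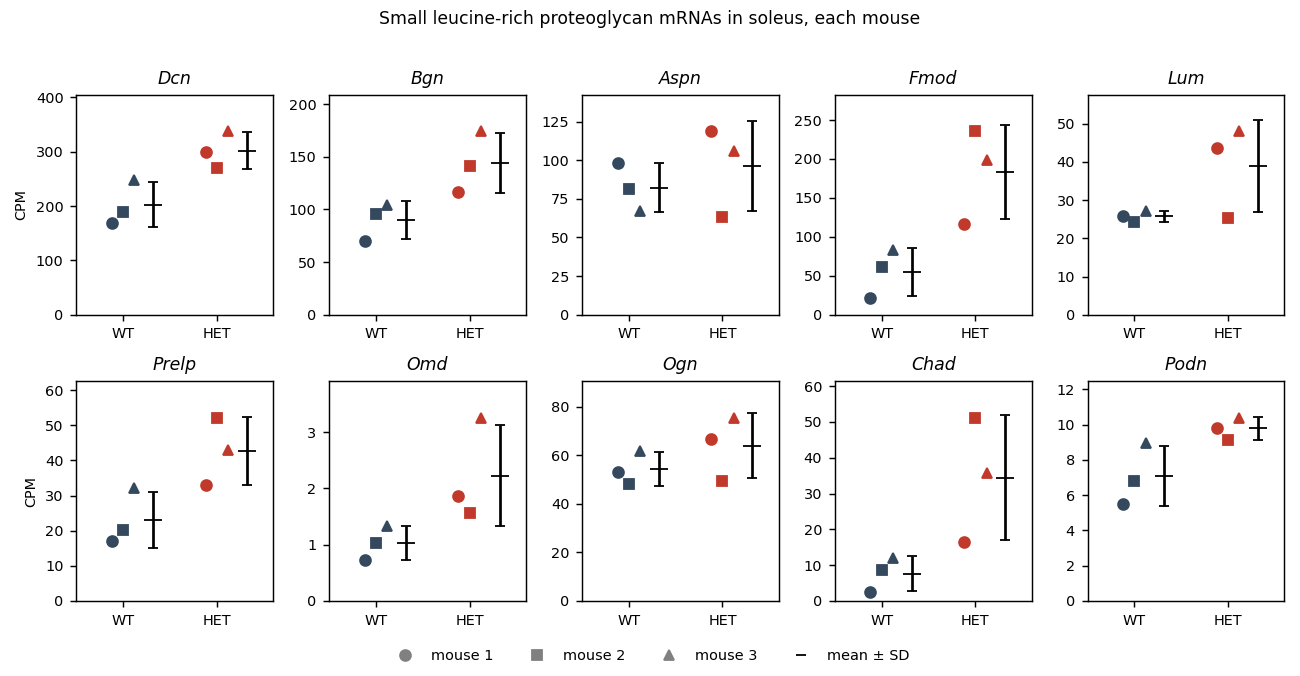
Level of each of the 10 members in CPM (linear axis from 0, own scale per panel) in WT (dark) and HET (red) mice. Symbols are the 3 mice of each genotype and the bar is the mean ± SD. Genotypes overlap in *Aspn*, *Lum* and *Ogn* and are apart in the other 7.

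*Dcn* encodes decorin, which carries 1 chondroitin or dermatan sulfate chain, binds collagen fibrils and holds TGF-β in the matrix. It had 299, 269.9 and 337 CPM in HET mice 1 to 3 and 169, 189 and 248 CPM in WT mice 1 to 3. The lowest HET mouse was only slightly above the highest WT mouse. The fold change was 1.49, with a log2 value of 0.58 (95% interval 0.26 to 0.89) and an adjusted p of 0.197 in edgeR.

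*Bgn* encodes biglycan, the closest relative of decorin, which is also released from matrix as a ligand of the innate receptors Tlr2 and Tlr4. HET mice had 117, 141 and 174 CPM and WT mice 69.6, 95.4 and 104 CPM. The genotypes were apart, and WT 1 was the lowest mouse, as it was for *Dcn*. On the log2 scale the fold change was 0.68 (95% interval 0.28 to 1.09, edgeR adjusted p = 0.254).

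*Aspn* encodes asporin, the member of this class with a run of aspartate in place of the sugar chain, and it is known to bind collagen and calcium. Its 119, 63.1 and 106 CPM in HET mice enclosed the 98.5, 81.3 and 67.2 CPM in WT mice. HET 2 was the lowest of all 6 mice here. Its log2 fold change of 0.22 had a 95% interval of −0.35 to 0.80, which spans 0 and does not exclude a difference of the size seen for *Dcn*.

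*Fmod* encodes fibromodulin, a keratan sulfate proteoglycan that binds collagen I and is abundant in tendon. It had 117, 235 and 198 CPM in HET mice 1 to 3 and 21.8, 60.9 and 82.5 CPM in WT mice 1 to 3. The highest WT mouse was below the lowest HET mouse, and within WT the level of WT 1 was far below that of WT 2 and WT 3. Fold change was 3.32, with a log2 value of 1.73 whose 95% interval ran from 0.23 to 3.24 (edgeR adjusted p = 0.566).

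*Chad* encodes chondroadherin, which lacks a sugar chain, binds integrin α2β1 and is best known from cartilage. HET mice had 16.5, 51.2 and 35.7 CPM and WT mice 2.37, 8.69 and 11.9 CPM. The genotypes were apart, but the spread within a genotype was the widest of the 10 members in both, with a coefficient of variation of 50.5% in HET and 63.3% in WT. The log2 fold change of 2.14 was the largest of the family, and its 95% interval of 0.26 to 4.02 was also the widest (edgeR adjusted p = 0.574).

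*Prelp* encodes a member with an arginine- and proline-rich end that binds heparan sulfate of basement membranes. It had 33.0, 52.2 and 43.0 CPM in HET mice and 17.0, 20.1 and 32.1 CPM in WT mice. HET 1 and WT 3 were nearly level, so the genotypes were only just apart. Its log2 fold change was 0.88 (95% interval 0.27 to 1.49, edgeR adjusted p = 0.366).

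*Lum* encodes lumican, which competes with fibromodulin for the same site on collagen. HET mice had 43.8, 25.2 and 48.0 CPM, and WT mice 25.8, 24.4 and 27.2 CPM. WT mice were nearly level, with a coefficient of variation of 5.59%, and HET 2 lay among them while the other HET mice were well above. The log2 fold change was 0.60 with all mice (95% interval 0.12 to 1.08, edgeR adjusted p = 0.451). Without HET 2, the mouse that overlapped with WT, it was 0.84 and passed the test with an edgeR adjusted p of 0.0272. It was 0.51 without HET 1 and 0.43 without HET 3, and passed in neither (edgeR adjusted p = 0.641 and 0.965).

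*Omd* encodes osteomodulin, a keratan sulfate proteoglycan best known from mineralized bone. It was the member with the fewest reads, 70, 42 and 143 in HET mice and 22, 29 and 66 in WT mice, or 2.23 ± 0.903 against 1.03 ± 0.301 CPM (mean ± SD, n = 3). HET 3 was far above the other mice. With all mice the log2 fold change was 1.10 (95% interval 0.36 to 1.84, edgeR adjusted p = 0.323) and 0.72 without HET 3. *Ibsp*, which encodes bone sialoprotein, had 408 reads in HET 3, 12 and 23 in HET 1 and HET 2, and 4, 0 and 0 in WT mice 1 to 3. In the same list of cartilage and bone markers, *Hapln1* had 39 reads, *Acan* 21, and *Snorc* and *Bglap* 7 each in HET 3. These were the most of any library, in reads and in CPM, and *Col2a1* was also highest there. Other markers of the list went the other way. *Sox9* was lowest of the 6 mice in HET 3, at 9.37 CPM. *Cnmd* and *Sp7* had 1 read each there and at most 5 and 4 elsewhere, and *Col10a1* had 7 reads there and 8 in WT 3. The part that RNA of bone or cartilage cells has in the *Omd* level of HET 3 was not tested.

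*Ogn* encodes osteoglycin, the only one of the 10 in its structural class, which it shares with epiphycan and opticin. It had 66.9, 49.3 and 75.5 CPM in HET mice and 53.3, 48.1 and 61.9 CPM in WT mice. The genotypes overlapped because HET 2 lay below 2 of the WT mice. For *Ogn* the log2 fold change of 0.23 had a 95% interval of −0.11 to 0.57.

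*Podn* encodes podocan, a collagen-binding member first known from the kidney and also made by vascular smooth muscle. HET mice had 9.83, 9.13 and 10.4 CPM and WT mice 5.52, 6.81 and 8.93 CPM. The HET mice were close together, with a coefficient of variation of 6.46%, and all lay just above WT 3. The log2 fold change was 0.46 (95% interval 0.07 to 0.85, edgeR adjusted p = 0.509). On the gene's strand *Podn* overlaps *Scp2*, so reads in exons of both could not be given to either gene.

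**Figure D2:**
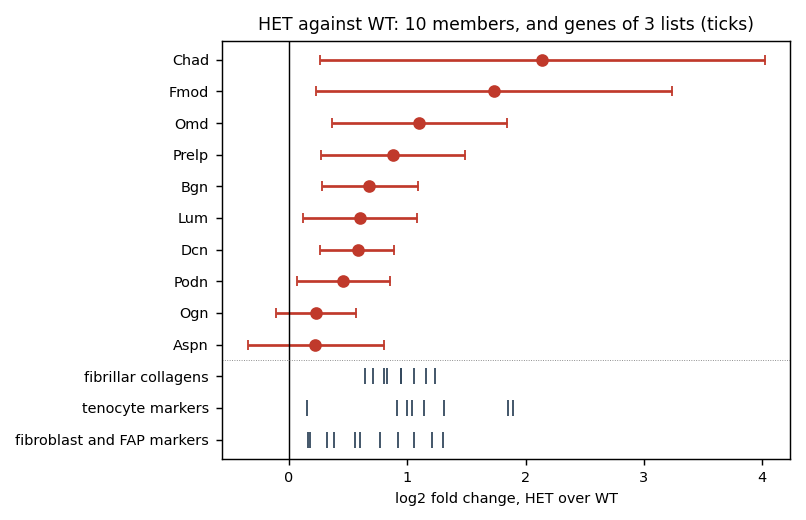
Log2 fold change of HET over WT for the 10 members (points, with approximate 95% intervals computed from edgeR's test statistic) and for the single genes of 3 lists (ticks). The intervals of 8 members lie above 0 before adjustment, and those of *Ogn* and *Aspn* span 0.

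The members lie in a few clusters, given here in the GRCm38 build. *Dcn* (chr10:97479609-97518143) and *Lum* (chr10:97565128-97572703) are 47.0 kb apart on the plus strand, and *Kera*, the keratocan gene, follows 34.2 kb after *Lum*. *Kera* had a log2 fold change of 0.70, with 25.3, 26.3 and 39.0 CPM in HET and 13.7, 21.8 and 20.3 CPM in WT mice. On chromosome 13, *Ecm2*, *Aspn* (chr13:49544443-49567565), *Omd* (chr13:49582462-49592822) and *Ogn* (chr13:49608046-49624501) follow each other on the plus strand within gaps of 11.7, 14.9 and 15.2 kb. These neighbors differed in size of change, with 1.10 for *Omd* but 0.22 and 0.23 for the genes on its sides and 0.19 for *Ecm2* (log2 fold change), and whether *Omd* differs from its neighbors was not tested. All of *Aspn*, *Omd* and *Ogn* lie within *Cenpp* on the opposite strand, which had between 44 and 80 reads. *Prelp* (chr1:133910304-133921414, minus strand) and *Fmod* (chr1:134037254-134048277, plus strand) are 116 kb apart. *Chad* (chr11:94565047-94569127, plus strand) lies within *Acsf2* on the opposite strand, which had between 138 and 227 reads. *Bgn* (chrX:73483602-73495933, plus strand) and *Podn* (chr4:108014791-108096445, minus strand) stand alone.

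RefSeq promoter windows of the GRCm38.p6 build were found for 8 of the 10 members, all but *Dcn* and *Lum*. The 250 bases before the start are shown for the 2 members with the largest log2 fold changes, *Chad* and *Fmod*, and the 2 with the smallest, *Aspn* and *Ogn*, so that they can be set side by side. Each runs 5′ to 3′ on the strand of its gene, and capitals mark TATAAA, the core of the box for the TATA-binding protein, and CANNTG, the E-box read by bHLH factors, on either strand.
Chad, chr11:94564797-94565046, plus strand: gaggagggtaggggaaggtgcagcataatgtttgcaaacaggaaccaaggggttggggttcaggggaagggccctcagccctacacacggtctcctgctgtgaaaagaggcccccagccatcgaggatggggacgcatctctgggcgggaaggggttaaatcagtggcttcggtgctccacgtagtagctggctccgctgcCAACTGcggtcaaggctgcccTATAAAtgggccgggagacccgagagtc
Fmod, chr1:134037004-134037253, plus strand: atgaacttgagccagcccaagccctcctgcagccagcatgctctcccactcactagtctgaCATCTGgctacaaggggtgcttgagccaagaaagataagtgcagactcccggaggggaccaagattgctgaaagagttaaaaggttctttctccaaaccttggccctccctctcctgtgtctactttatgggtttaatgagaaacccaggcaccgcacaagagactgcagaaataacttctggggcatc
Aspn, chr13:49544193-49544442, plus strand: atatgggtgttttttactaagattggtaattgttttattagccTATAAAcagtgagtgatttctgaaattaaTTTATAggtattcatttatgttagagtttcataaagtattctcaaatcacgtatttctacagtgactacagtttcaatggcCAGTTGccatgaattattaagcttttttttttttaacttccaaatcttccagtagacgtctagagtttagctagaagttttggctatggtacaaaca
Ogn, chr13:49607765-49608014, plus strand: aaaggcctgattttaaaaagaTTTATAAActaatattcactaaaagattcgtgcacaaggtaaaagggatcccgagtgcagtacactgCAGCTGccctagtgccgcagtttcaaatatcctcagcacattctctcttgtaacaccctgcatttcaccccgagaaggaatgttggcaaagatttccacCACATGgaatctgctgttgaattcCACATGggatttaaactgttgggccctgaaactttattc

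TATAAA was present in 3 of the 8 members with a window, *Chad*, *Aspn* and *Ogn*, and in 12.4% of the 32851 windows of the table. In *Chad* it begins 28 bases before the start, close to where such a box usually lies, while in *Aspn* and *Ogn* it is farther away. An E-box was present in 6 of the 8 members and in 66.2% of all windows. The AP-1 letters TGANTCA were in none of the 8 and in 6.75% of all windows. GC content ranged from 30.0% in *Aspn* to 78.0% in a window of *Podn*, beside a median of 52.4% over all windows.

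Per transcript length, the mean levels of the members had a different order in each genotype. In WT mice, *Aspn* and *Dcn* were highest, at 94.7 ± 15.8 and 94.5 ± 21.5 TPM (reads per exon length, scaled to the library; mean ± SD, n = 3), and did not differ beyond their spread. *Ogn*, *Fmod*, *Bgn* and *Lum* followed at 57.7, 45.6, 40.1 and 28.6 TPM, with overlap between each and the next. Then came *Prelp* and *Chad* at 17.4 and 12.5 TPM, and *Podn* and *Omd* at 4.53 and 1.25 TPM. *Chad* overlapped with *Prelp* and with *Podn*, and *Omd* lay below all others. In HET mice *Fmod* was first at 165 ± 54.1 TPM, with *Dcn* at 154 ± 21.5 and *Aspn* at 121 ± 37.8 TPM, and these 3 overlapped. *Chad* was at 60.7 ± 30.1 TPM in HET mice and overlapped there with *Aspn*, *Ogn*, *Bgn*, *Lum* and *Prelp*.

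Summed over the 10 members, the level was 650.4, 710.5 and 849 TPM in HET mice 1 to 3 and 339.8, 385 and 465 TPM in WT mice 1 to 3. Of this sum, *Fmod* took 22.2% ± 6.60 in HET and 11.01% ± 5.16 in WT mice, and *Chad* took 8.17% ± 4.04 and 2.99% ± 1.66 (SD, n = 3). *Ogn* took 10.1% ± 1.99 in HET and 14.6% ± 1.55 in WT mice. Shares are parts of a whole, so larger shares of some members lower those of others. The mean level of *Ogn* itself was 74.0 TPM in HET and 57.7 TPM in WT mice. The shares of *Fmod*, *Chad* and *Ogn* did not overlap between genotypes. Each had an exact two-sided permutation p of 0.1, the smallest that 3 against 3 mice allow, and an adjusted p of 0.333 over the 10 shares. The difference for *Chad* was 5.18 percentage points per length and 2.39 points when shares were taken in counts. Shares of *Dcn*, 20.9% in HET and 23.6% in WT, and of *Bgn*, 9.46% and 10.04%, overlapped between genotypes. The share of *Aspn* was 16.6% ± 5.88 in HET and 24.7% ± 7.82 in WT mice, also with overlap.

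**Figure D3:**
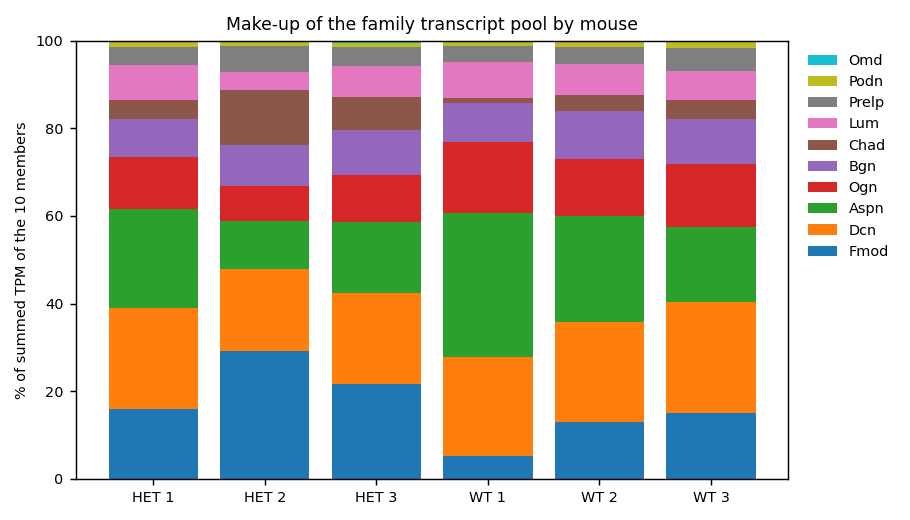
Share of each member in the summed TPM of the 10 members, by mouse (stacked bars, linear axis from 0 to 100%). *Fmod* takes between 15.9% and 29.1% in HET and between 5.17% and 14.9% in WT mice.

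Members were also compared with each other as a log2 ratio to *Dcn* within each mouse. The ratio of *Chad* to *Dcn* was 1.72 higher in HET than in WT mice, that of *Fmod* 1.29 higher, that of *Omd* 0.49 higher, and that of *Ogn* lower, at −0.37 (log2 scale). In these 4 the genotypes did not overlap, with an exact permutation p of 0.1 each and an adjusted p of 0.225 over 9 ratios. The ratio of *Podn* to *Dcn* was nearly fixed over the 6 mice, between −5.02 and −4.80, and its genotypes overlapped. Ratios of *Bgn* and *Lum* differed by 0.09 and −0.05 between genotypes, less than their spread between mice.

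Over single mice the members fell into different orders. *Fmod*, *Chad* and *Prelp* were highest in HET 2, then HET 3, then HET 1, and HET 2 is the highest HET mouse in 38.5% of all tested genes. *Dcn*, *Lum*, *Omd*, *Ogn*, *Podn* and *Aspn* were lowest of the HET mice in HET 2, a place that HET 2 takes in 38.3% of all tested genes. WT 1 was the lowest of the 6 mice in 7 members, and in 17.9% of all tested genes. It held this place in 9 of 9 fibrillar collagen genes and 9 of 9 for collagen VI and fibril partners. The same was true of 8 of 8 tenocyte, 10 of 11 fibroblast and FAP and 5 of 5 Schwann cell markers. Among endothelial markers it was lowest in 2 of 7, and among slow fiber markers in 0 of 7.

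Several marker lists had one of these orders. The summed level of the 8 tenocyte markers was 243, 421 and 379.9 CPM in HET mice 1 to 3 and 89.8, 182 and 212 CPM in WT mice 1 to 3, and WT 1 was the lowest mouse in 8 of 8. HET 2 was the highest HET mouse in 5 of the 8 and the lowest in none. *Thbs4* made up most of the sum, with 152, 251 and 221 CPM in HET mice 1 to 3. *Tnmd*, *Mkx* and *Ptx4* were highest in HET 3 and so did not share the order of *Fmod* and *Chad*. HET 2 was also the highest HET mouse in 6 of 6 vascular smooth muscle, 6 of 7 endothelial, 4 of 5 adipocyte and 4 of 5 Schwann cell markers. Adipocyte markers summed to 27.0, 73.2 and 41.4 CPM in HET mice 1 to 3 and 10.97, 13.2 and 50.02 CPM in WT mice 1 to 3, and endothelial markers to 461, 572 and 500.2 CPM in HET and 524, 598 and 487 CPM in WT mice. All 8 tenocyte markers had log2 fold changes above 0, from 0.15 for *Scx*, the tendon transcription factor, to 1.89 for *Cilp2*. Their median was 1.09, and none passed the adjusted test, while 5 of the 8 were higher in HET at an unadjusted edgeR p below 0.05. The summed level of 11 fibroblast and FAP markers was 387, 360.4 and 474 CPM in HET and 249.9, 299 and 301 CPM in WT mice, and here HET 2 was the lowest HET mouse in 7 of the 11. All 11 were above 0, from 0.16 for *Osr1* to 1.30 for *Dpp4*, with a median of 0.60, and *Pi16*, a marker of adventitial fibroblasts, passed the test with 1.06 and an edgeR adjusted p of 0.0452. The part of tendon, fibroblast and other cell content in the levels of the members was not tested.

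**Figure D4:**
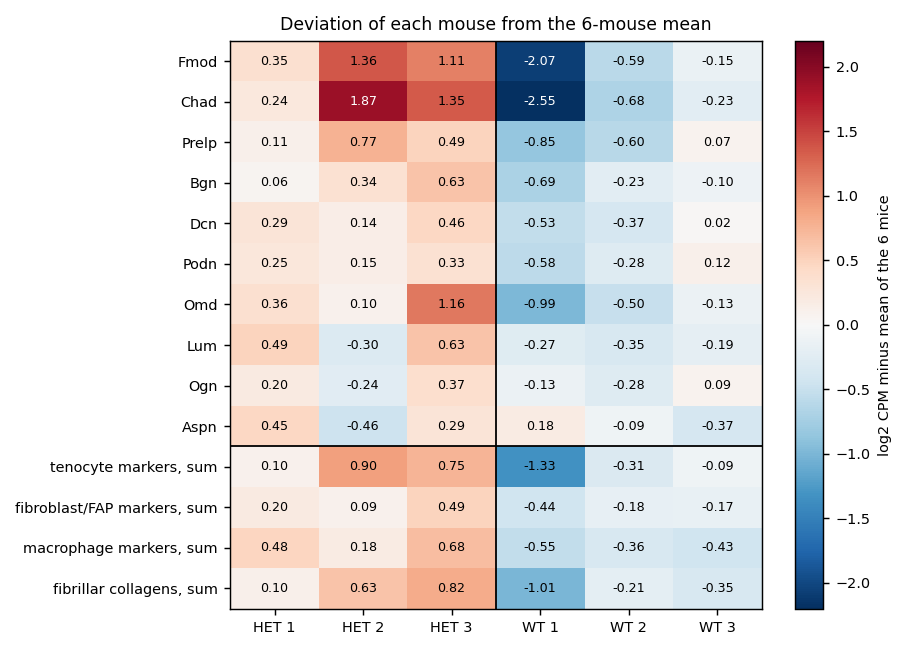
Deviation of each mouse from the mean of the 6 mice (log2 CPM) for the 10 members and, below the line, for the summed CPM of 4 lists. *Fmod*, *Chad* and the tenocyte sum are highest in HET 2, at 1.36, 1.87 and 0.90, and lowest in WT 1, at −2.07, −2.55 and −1.33. Most of the tenocyte sum is *Thbs4*. The sums of the other lists are also lowest in WT 1.

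Markers of the other cell types were read in the same way. Of 12 macrophage markers, 5 rose past the threshold, *Csf1r*, *Adgre1*, *C1qa*, *C1qb* and *Lyz2*, with edgeR adjusted p between 0.0130 and 0.0452, and the summed level of all 12 of 107, 87.2 and 123 CPM in HET lay above the 52.5 to 59.97 CPM in WT mice. The 12 ranged from −0.10 for *Mertk* to 2.14 for *Fcgr1* (log2 fold change), with a median of 1.34, and HET 2 was the lowest HET mouse in 7 of the 12. No vascular smooth muscle, endothelial, Schwann cell or adipocyte marker passed, with medians of 0.07 over 6, −0.06 over 7, 0.02 over 5 and 0.95 over 5 genes. Their ends were *Lmod1* at −0.08 and *Cnn1* at 0.60, *Cdh5* at −0.18 and *Cldn5* at 0.22, *Sox10* at −0.16 and *Prx* at 0.13, and *Pparg* at −0.19 and *Adipoq* at 1.27. Of 10 cartilage and bone markers, 3 had enough reads to be tested, *Sox9* at −0.02, *Col2a1* at 1.06 and *Ibsp*, and none passed. *Acan* had too few reads to be tested, with at most 0.479 CPM in any library.

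The collagens that these proteoglycans bind also had higher mean levels in HET mice. All 9 fibrillar collagen genes had log2 fold changes above 0, from 0.64 for *Col5a3* to 1.23 for *Col1a1*, with a median of 0.95, and none passed the adjusted test. Each of the 9 was higher in HET at an unadjusted edgeR p below 0.05, against 5.76% of all tested genes. Of 9 genes for collagen VI and partners of the fibril, all were above 0, from 0.56 for *Eln* (elastin) to 1.27 for *Col14a1*, with a median of 0.96. Among them *Col6a2*, a chain of the microfibrils that biglycan and decorin bind, rose by 0.96 with an edgeR adjusted p of 0.0493.

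None of the genes that build the sugar chains of the family passed the adjusted test, and none of the members did. Of 23 genes for chondroitin and dermatan sulfate synthesis, 22 were tested, 17 were above 0 and none passed, with a median log2 fold change of 0.24. They ranged from −0.17 for *Csgalnact1*, an enzyme that starts the chain, to 0.93 for *Ust*, which sulfates uronic acid in it. Of the 22, 4 were higher in HET at an unadjusted edgeR p below 0.05, against 5.76% of all tested genes. Every HET mouse lay above every WT mouse in 6 of the 22, against 7.55% of all tested genes. Of 9 genes for keratan sulfate and tyrosine sulfation, 6 were tested and none passed, from −0.11 for *B4galt4* to 0.37 for *Chst1*, with a median of 0.10. None of these 6 had an unadjusted edgeR p below 0.05.

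Of 12 proteases that cut family members, 8 were tested, 7 were above 0 and none passed, from −0.20 for *Tll1* to 0.78 for *Adamts4*, an aggrecanase, with a median of 0.62. Of the 8, 6 were higher in HET at an unadjusted edgeR p below 0.05, against 5.76% of all tested genes. Of 18 receptors and ligands bound by the family, 14 were above 0 and none passed, with a median of 0.14. Before adjustment, 5 of the 18 were higher in HET and 1 lower at an edgeR p below 0.05. The ends of the 18 were *Mstn*, the myostatin gene, at −0.80 and *Itga2*, a chain of the integrin that chondroadherin binds, at 1.22. *Mstn* had 1.07, 1.90 and 1.69 CPM in HET mice and 3.28, 2.27 and 2.53 CPM in WT mice, without overlap and in the opposite direction to the members. Every HET mouse lay below every WT mouse in 884 of the 14696 tested genes, so 1 such gene among 18 is not unusual.

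Of the 8 other genes of the family, 5 were tested and all of these were above 0, with a median of 0.21, and none passed. They ranged from 0.17 for *Nyx* to 0.70 for *Kera*. *Epyc*, *Optc* and *Podnl1* had too few reads to be tested.

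The genes outside the family whose levels over the 6 mice were most like the mean profile of the members were *Man1a*, *Scara5*, *Creb3l2*, *S100a10* and *Pcsk6*, among 7849 genes with a mean of at least 10 CPM. Likeness was measured as the distance between z-scored log2 CPM over 6 mice, which was between 0.421 and 0.541 for these genes, with a median of 3.15 over the genes compared. Among the members, *Dcn* was nearest to that mean at 0.485 and *Aspn* farthest at 2.50. *Scara5*, a ferritin receptor, had 17.5 ± 4.12 CPM in HET and 9.64 ± 2.87 CPM in WT mice, and *Pcsk6*, a proprotein convertase, 29.1 ± 6.81 and 17.6 ± 4.80 CPM (mean ± SD, n = 3). Their log2 fold changes were 0.85 and 0.73. Those of *Man1a*, *Creb3l2* and *S100a10* were smaller, at 0.41, 0.28 and 0.30. The z-scores remove the size of a change, so likeness here is of the relative spacing of the mice only. The mean profile is made from the members, so their distances to it cannot be set directly against those of other genes.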

How the data were processed

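Poly-A RNA of 6 soleus muscles was sequenced with 1 stranded library per mouse. Reads were aligned by the authors to GRCm38 with STAR 2.7.3a, and featureCounts 2.0.3, set to reverse strand, gave the deposited raw counts per gene. The second deposited table is a signal, raw counts over DESeq2 size factors, used here to find the members and as an alternative scale. Their table of DESeq2 fold changes and p-values was not used. The number of columns of values per mouse left without a sample was 0.

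Genes were kept by filterByExpr with a minimum count of 10 (14696 of 51912) and tested in edgeR 4.0.16 by robust quasi-likelihood, genotype as the only term, TMM factors and Benjamini-Hochberg adjustment over all genes tested, with a threshold of 0.05. R 4.3.3, limma 3.58.1, DESeq2 1.42.0, Python 3.11.15, NumPy 2.4.6, pandas 2.3.3, SciPy 1.17.1 and matplotlib 3.10.9 were used. TPM used the exon length in the count table. Shares and ratios were tested with exact permutation over mice. The depth, between 26790075 and 50368796 reads, limits most the member with the fewest reads, *Omd*.

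Named genes are the 10 members, and of each list those past the threshold and the 2 at the ends of the range, with *Mustn1*, *Xist*, 4 Y chromosome genes and the 5 genes most like the members. *Ecm2*, *Acan*, *Sp7*, *Bglap*, *Hapln1*, *Snorc*, *Cnmd*, *Col10a1*, *Col2a1*, *Thbs4*, *Tnmd*, *Mkx*, *Ptx4* and overlapping genes were named after their values were seen. The members and lists were chosen with earlier results of these data known. The steps were tested on simulated counts. The alternatives were other scalings, filters and tests, the replicate number as a block, a length offset, each mouse left out, levels in TPM or as the authors' normalized counts, and shares in counts.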

Additional observations from a re-analysis of the deposited data

How the results depend on the processing

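The log2 fold changes of the 10 members stayed above 0 in all 170 combinations of member and alternative, and 18 of these passed the threshold that no member passed in the report. Their median stayed between 0.62 and 0.72 under other scalings, filters and tests and between 0.51 and 0.78 with each mouse left out. The number of members past the threshold was 4 without a filter on low counts (*Dcn*, *Bgn*, *Lum* and *Omd*), 3 with DESeq2's Wald test (*Dcn*, *Bgn* and *Prelp*) and 0 with other scaling factors, a stricter filter, limma-voom, non-robust dispersion or a length offset. With each mouse left out it was between 0 and 2, with *Lum* called without HET 2 and *Dcn* and *Prelp* without WT 3. Over all genes tested, the number past the threshold, 22 in the report, was 404 without the filter, 226 with DESeq2, 3 with limma-voom and 6 with non-robust dispersion, and between 0 and 83 with each mouse left out, with 0 without HET 1, HET 3, WT 1 or WT 2 and 83 without WT 3. The cause was not tested.

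Replicate numbers 1 to 3 occur in both genotypes, but deviations of same-numbered mice correlated by 0.203, −0.00578 and −0.0349, so the numbers were not taken as pairs, and not every mouse correlated best with its own number (HET 2 with WT 3, 0.133). With the replicate number as a block, 4 members (*Dcn*, *Bgn*, *Fmod* and *Chad*) and 116 genes passed, and with the length offset and the block 4 members and 130 genes. Levels in TPM or as the authors' normalized counts moved by less than the spread between mice. With shares in counts, each difference kept its sign, and those of *Chad*, *Aspn* and *Ogn* went from 5.18, −8.04 and −4.55 to 2.39, −5.02 and −3.04 percentage points.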
